A study of Homo sapiens with 6 samples.

Results

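The regions described here were the ATAC-seq peaks on human chromosome 19 whose left edge lay at or beyond position 20000000 of the hg38 genome build, in 6 peak lists from SK-N-AS neuroblastoma cells. Of 1044250 peaks in the lists, 27007 met this rule, and peaks that overlapped between lists merged into 8319 regions. Peaks were then divided by whether they lay at the start of a gene whose symbol begins with ZNF. The cells were grown from tumors that SK-N-AS cells had formed in mice. The naïve cells (SKNAS-Vel) came from tumor tissue grown under vehicle, and R1 (SKNAS-IR1) and R2 (SKNAS-IR2) came from tumors that had relapsed for the second time under indisulam, a sulfonamide that makes the ubiquitin ligase receptor DCAF15 degrade the splicing factor RBM39. The cultured cells themselves received no treatment according to the labels, and each of the 3 cell types gave 2 libraries. Nothing in the labels says that the 2 libraries of a cell type came from separate cultures, so the p-values below measure only the spread between these libraries.

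ATAC-seq marks DNA that is open to the Tn5 transposase, such as active promoters and enhancers. The long stretch of chromosome 19 studied here carries large clusters of zinc finger genes, many of them with a KRAB domain, which arose by repeated duplication of neighboring genes. KRAB zinc finger proteins bind DNA, often in transposable elements, and recruit the co-repressor TRIM28, which brings the histone methyltransferase SETDB1 and the H3K9me3 mark of silent chromatin. The zinc finger genes themselves carry H3K9me3 over their last exons, which encode the fingers, and ZNF274 is known to bind there.

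Sequences are shown for 7 stretches on which the results below turn. The first 6 are start windows of the GENCODE canonical transcript, from 250 bases before the start to 50 bases from it, read from the hg38 genome along the direction of the gene. ZNF574, outside the clusters described below, had the best ranked ZNF start, and ZNF8 the best within a cluster. Among ZNF starts where the resistant and naïve libraries did not overlap, ZNF211 had the largest positive and ZNF444 the largest negative difference, while ZNF737 had no peak in any list and ZNF675 had a strong peak in the 4 resistant libraries and none in the naïve ones. The last is the 201 bases around the summit of the strongest region away from any annotated start. Capitals mark matches, on either strand, to 10 short motifs named further on.
ZNF574, chr19:42075916-42076215, plus strand: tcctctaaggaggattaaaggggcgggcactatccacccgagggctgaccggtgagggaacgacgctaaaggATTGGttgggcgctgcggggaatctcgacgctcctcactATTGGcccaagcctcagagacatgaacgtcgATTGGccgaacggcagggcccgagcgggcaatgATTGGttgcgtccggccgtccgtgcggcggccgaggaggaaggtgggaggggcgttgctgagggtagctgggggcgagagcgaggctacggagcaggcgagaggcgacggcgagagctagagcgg
ZNF8, chr19:58278705-58279004, plus strand: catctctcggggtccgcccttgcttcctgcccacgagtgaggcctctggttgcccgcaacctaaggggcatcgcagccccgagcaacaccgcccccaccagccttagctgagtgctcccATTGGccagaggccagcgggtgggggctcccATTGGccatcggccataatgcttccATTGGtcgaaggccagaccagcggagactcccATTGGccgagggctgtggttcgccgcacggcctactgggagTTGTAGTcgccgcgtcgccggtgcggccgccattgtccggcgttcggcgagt
ZNF211, chr19:57632918-57633217, plus strand: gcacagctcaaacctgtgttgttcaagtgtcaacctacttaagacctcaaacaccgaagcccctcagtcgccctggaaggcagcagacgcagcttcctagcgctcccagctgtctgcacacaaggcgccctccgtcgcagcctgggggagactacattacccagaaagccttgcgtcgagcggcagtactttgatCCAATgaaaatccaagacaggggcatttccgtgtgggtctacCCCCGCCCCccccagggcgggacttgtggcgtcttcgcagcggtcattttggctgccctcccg
ZNF444, chr19:56141037-56141336, plus strand: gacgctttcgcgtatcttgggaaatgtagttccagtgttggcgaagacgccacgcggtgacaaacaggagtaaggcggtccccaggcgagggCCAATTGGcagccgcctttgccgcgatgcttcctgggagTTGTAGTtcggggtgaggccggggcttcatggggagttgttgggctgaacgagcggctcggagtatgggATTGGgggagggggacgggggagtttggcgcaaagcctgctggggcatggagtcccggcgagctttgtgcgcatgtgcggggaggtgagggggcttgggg
ZNF737, chr19:20565732-20566031, minus strand: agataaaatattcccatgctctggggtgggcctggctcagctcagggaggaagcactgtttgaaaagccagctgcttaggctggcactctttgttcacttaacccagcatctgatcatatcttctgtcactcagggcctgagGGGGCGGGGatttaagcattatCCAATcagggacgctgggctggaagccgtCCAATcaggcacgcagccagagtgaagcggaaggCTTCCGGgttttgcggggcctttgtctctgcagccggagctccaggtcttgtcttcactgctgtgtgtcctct
ZNF675, chr19:23687163-23687462, minus strand: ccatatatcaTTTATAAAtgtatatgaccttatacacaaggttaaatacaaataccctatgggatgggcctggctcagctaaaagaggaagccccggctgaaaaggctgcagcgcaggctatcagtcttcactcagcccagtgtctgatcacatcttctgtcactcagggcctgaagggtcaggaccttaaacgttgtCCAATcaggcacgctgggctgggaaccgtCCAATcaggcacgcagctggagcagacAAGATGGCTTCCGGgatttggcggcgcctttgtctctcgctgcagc
Region away from starts, chr19:37293369-37293569, plus strand: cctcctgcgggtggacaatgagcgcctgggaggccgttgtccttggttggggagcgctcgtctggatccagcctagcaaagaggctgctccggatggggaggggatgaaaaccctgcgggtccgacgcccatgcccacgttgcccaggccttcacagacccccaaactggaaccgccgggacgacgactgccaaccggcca
In the ZNF675 window the YY1 letters AAGATGGC and the ETS letters CCGGAAG, the latter on the other strand, run into each other just downstream of the start. The CCAAT letters of NF-Y stand in all 6 start windows, in ZNF574 and ZNF8 as 4 matches each on the other strand. The region away from starts held none of the 10 motifs.

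The lists differed greatly in depth. The naïve lists held 5287 and 3902 peaks of this stretch, the R1 lists 7725 and 6942, and the R2 lists 1479 and 1672. The background rate that the deposited folds imply, in tags under a peak position, came to 2.29 and 1.35 in the naïve libraries, 7.94 and 5.43 in R1, with 0.850 and 0.899 in R2, so cell type and depth cannot be told apart in a count of peaks. Values were therefore compared within a list, as the percentile rank of a peak by its p-value (100 is the strongest), or among the top 20000 peaks of each list. The stretch held 2.65% and 2.81% of the naïve top 20000, 2.73% and 2.83% of the R1 and 2.23% and 2.46% of the R2 (mean change in resistant cells -0.17 percentage points, exact two-sided permutation test, p = 0.667). With 2 libraries against 4 that test cannot give a p below 0.133. As a check of the cell type, peaks stood at 6 or 7 of 8 adrenergic neuroblastoma gene starts and at 5 to 7 of 7 mesenchymal ones in every list, while 1 or 2 of 4 blood cell gene starts had a peak, with 0 in a top 20000. Of 4 epithelial gene starts, the naïve lists had a peak at 2 and 3, the R1 lists at 4 and 4, and the R2 lists at 1 and 1. KRT18 among them was in the top 20000 of both naïve lists and the first R1 list.

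GENCODE places 196 protein-coding ZNF genes and 674 other protein-coding genes on this stretch. A peak summit within 1000 bp of the gene start was found for 129 and 113 of the ZNF genes in the naïve libraries, for 159 and 151 in R1 and for 98 and 96 in R2. These make shares of 65.8% and 57.7%, of 81.1% and 77.0%, and in the second R2 library of 48.98%. The other genes had a peak at 77.2%, 71.1%, 85.3%, 82.6%, 53.0% and 55.5% of their starts in the same order. ZNF starts were thus occupied less often in 6 of 6 libraries, with a difference of -7.34 ± 4.14 percentage points (mean and SD over libraries, exact two-sided sign-flip permutation test, p = 0.0312, Benjamini-Hochberg adjusted over 4 tests 0.0417). This p is the smallest that 6 libraries can give. The difference depended on how far a peak may lie from the start: it was -0.337 points when 500 bp were allowed (p = 0.938 in the same exact test).

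**Figure D1:**
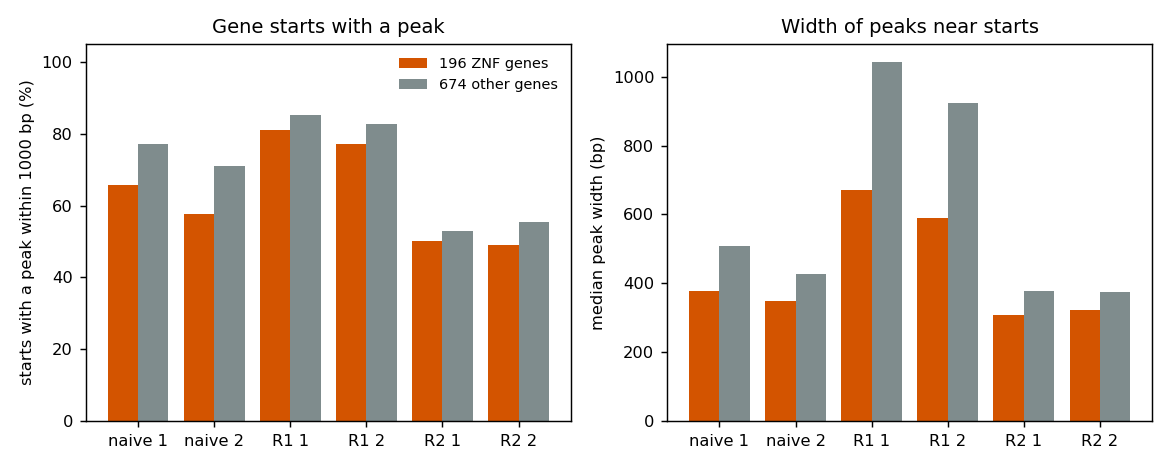
Left, percent of protein-coding gene starts with a peak summit within 1000 bp, for ZNF genes and other genes of the same stretch, by library. Right, median width in bp of peaks near ZNF starts and near other starts. In each library both bars of the ZNF genes are the lower ones, and both measures are largest in the deeply sequenced R1 libraries.

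The occupied starts were not spread evenly. A peak at the start was present in all 6 lists for 78 ZNF genes (39.8%) and in no list for 28 (14.3%), against 276 (40.9%) and 53 (7.86%) of the other genes. Over all 20033 protein-coding genes of the genome these shares were 49.9% and 14.8%. ZNF genes elsewhere stood apart from those beyond 20 Mb. Of 53 protein-coding ZNF genes on chromosome 19 before that point, 33 (62.3%) had a peak in all 6 lists and 0 had none. Of 267 on other chromosomes, 169 (63.3%) had a peak in all lists and 23 (8.61%) had none. The share of ZNF starts with a peak was lower beyond 20 Mb than elsewhere in 6 of 6 libraries, with a mean difference of -16.8 percentage points (65.8% against 81.6% in the first naïve library, 48.98% against 70.3% in the second R2 library, exact sign-flip permutation test, p = 0.0312, adjusted over 2 added tests 0.0312). The clusters described below were not alike in this. Cluster 6, the largest, had a peak in all lists at 64.4% of its 59 starts, and 0 had none. The comparison with ZNF genes elsewhere and that of gene bodies below were added after the data had been seen.

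Neighboring ZNF genes fell into 6 clusters of at least 5 genes with gaps under 1 Mb, which left 10 genes outside. Cluster 1, from ZNF682 to ZNF254 (starts from 20039505 to 24087187), had 5 of 32 starts open in all lists and 10 in none. Cluster 2, from ZNF302 to ZNF792, had 3 of 5 open in all lists and 0 in none. Cluster 3, from ZNF565 to ZNF573, had 11 of 26 and 3, and cluster 4, from ZNF575 to ZNF296, had 11 of 24 and 2. Cluster 5, from ZNF175 to ZNF331 (starts from 51571283 to 53538145), had 7 of 40 open in all lists and 11 in none. Cluster 6, from ZNF628 to ZNF446 near the end of the long arm (starts from 55476617 to 58476352), had 38 of 59 open in all lists and 0 in none. Clusters 1 and 5 were thus the sparse ones, and they held 21 of the 28 ZNF genes without any peak.

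The order of the clusters was similar in each library. Cluster 5 had a peak at 35.0% and 32.5% of its starts in naïve cells, 57.5% and 55.0% in R1, with 10 of 40 in both of R2. Cluster 6 had 88.1% and 74.6%, 96.6% and 96.6%, and 74.6% and 71.2%. Cluster 1 had 10 and 8 of 32 starts with a peak in naïve cells, 21 and 15 in R1, with 6 and 7 in R2. In all 6 libraries the shares of clusters 1 and 5 lay below those of clusters 2, 3, 4 and 6.

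**Figure D2:**
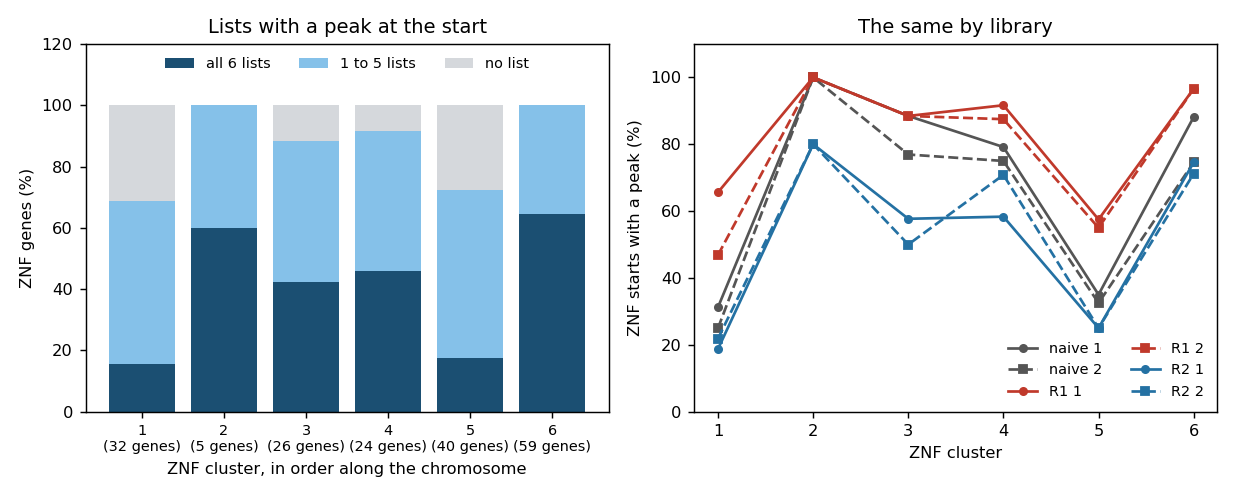
Left, percent of the ZNF genes of each cluster with a start peak in all 6 lists, in 1 to 5 lists or in none. Right, percent of ZNF starts with a peak in each library, circles for the first and squares for the second library of a cell type. Clusters 1 and 5 are the lowest in all 6 libraries, and cluster 6 has no gene without a peak.

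The genes without any peak in cluster 1 were ZNF737, ZNF43, ZNF208, ZNF257, ZNF676, ZNF98, ZNF728, ZNF730, ZNF724 and ZNF91. ZNF91 is known as a repressor of SVA retrotransposons. In cluster 5 they included ZNF577, ZNF528, ZNF432, ZNF28 and ZNF468, named here after their values had been seen. Reads from near-identical copies cannot be placed by an aligner, so the 301 bases around each start were checked for 50-base words that occur only once on chromosome 19. Of the 28 ZNF starts without a peak, 19 consisted of such words throughout, and the median was 100% unique. The lowest were ZNF28 and ZNF468, at 38.1% each, and ZNF208, at 61.9%. Of the 78 ZNF starts with a peak in all lists, 74 were unique throughout. Words shared with other chromosomes were not counted.

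The empty ZNF starts also differed in base composition from the empty starts of other genes. CpG islands, where CpG is not depleted, cover most promoters that are active in many cell types. In the start windows, the ratio of observed to expected CpG had a median of 0.693 for ZNF genes without a peak, 0.781 for those with a peak in 1 to 5 lists and 0.825 for those with a peak in all 6. In the other genes the medians were 0.282, 0.407 and 0.847. Of the 28 ZNF starts without a peak, 17 had a ratio over 0.6, against 3 of 53 in the other genes and 12.0% of the empty starts of the genome. Cluster 5, with few open starts, had a median ratio of 0.848, against 0.830 in cluster 6 and 0.450 in cluster 1. DNA methylation was not measured in these files.

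**Figure D3:**
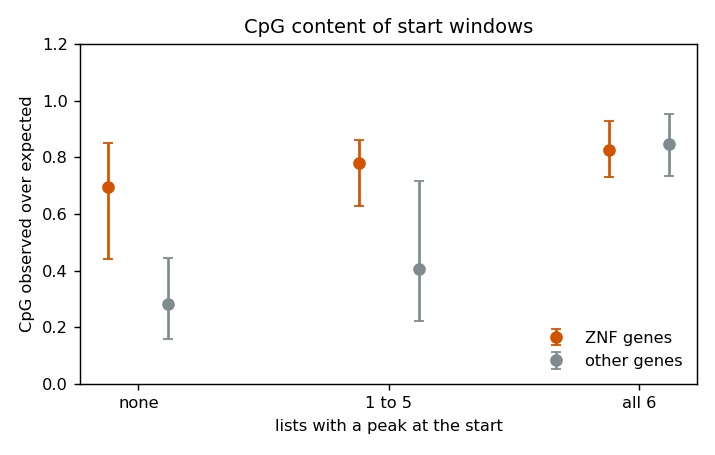
Median observed over expected CpG in the 300-base start windows (points) with the lower and upper quartile (bars), for protein-coding genes with a start peak in no list, in 1 to 5 lists or in all 6. The ZNF medians are above 0.6 in each class, while those of the other genes rise from 0.282 to 0.847.

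Other gene families of this stretch were rarely open across the lists. The 15 kallikrein genes (KLK), the 11 SIGLEC genes, the 22 CEACAM or PSG genes, the 9 NLRP genes, the 6 CYP2 genes and the 18 genes whose symbols begin with LILR or KIR (KIRREL2 included, which is no immune receptor) are used in epithelia, placenta, liver, germ cells or blood. Of them 0 had a start peak in all 6 lists, although 0 of the KLK, 2 of the SIGLEC, 2 of the CEACAM or PSG, 4 of the LILR or KIR, 1 of the CYP2 and 8 of the NLRP genes lacked one in every list. In the deep first R1 list a start peak stood at 15 of 15 KLK, 9 of 11 SIGLEC and 17 of 22 CEACAM or PSG genes, but at 1 of 9 NLRP genes. In a top 20000, 1 gene whose symbol begins with LILR or KIR had a peak, in both R1 lists. Their median CpG ratios ran from 0.112 for CYP2 to 0.463 for NLRP. Of 13 genes of the KRAB silencing machinery, a list that spans the genome, 9 had a peak in all lists (69.2%, against 49.9% of all protein-coding genes). TRIM28, which lies at the end of the long arm, was in the top 20000 of each list, at place 3581 and 5208 in naïve cells, 2894 and 3381 in R1, with 4257 and 1540 in R2.

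ZNF start peaks were strong compared with other peaks of the stretch. Their median percentile rank reached 84.4 and 83.7 in the naïve libraries, 93.9 and 92.8 in R1, with 74.6 and 75.2 in R2. All other peaks of the stretch had medians of 41.3, 41.1, 51.5, 53.4, 47.8 and 48.3. The difference was 36.9 ± 7.86 percentile points (6 of 6 libraries, exact sign-flip permutation test, p = 0.0312, adjusted 0.0417). Most of those other peaks were away from any protein-coding start, and against the starts of other protein-coding genes the difference was 8.78 ± 8.27 points, which did not pass (p = 0.125 in the same exact test, positive in 4 of 6 libraries and 0 in both of R2). Among the top 20000 peaks the ZNF start peaks and the other peaks of the stretch differed by -0.916 points (p = 0.0625 in the exact sign-flip test). Ranks there were kept from the full lists and weaker peaks were left out, so this value cannot be set beside 36.9.

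ZNF start peaks were narrow and close to the annotated start. Their median width was 377 and 348 bp in naïve cells, 672 and 590 bp in R1, with 308 and 322 bp in R2. Those at other protein-coding starts measured 507, 426, 1043, 924, 376 and 375 bp. The ZNF peaks were narrower in 6 of 6 libraries. The difference was -172.5 ± 142 bp (exact sign-flip permutation test, p = 0.0312, adjusted 0.0417), and -166 bp with protein-coding ZNF genes only. In the first R1 library the strongest peak of a gene was over 1000 bp wide at 47 of 159 ZNF starts (29.6%) and at 377 of 575 other starts (65.6%). The summit lay within 200 bp of the start for 79.6% to 82.3% of the ZNF genes over the 6 libraries and for 52.1% to 60.9% of the other genes. In the first R1 library 20 of 159 ZNF genes (12.6%) shared their start peak with another protein-coding gene, against 103 of 575 other genes (17.9%). Of the 60 shared peaks, 17 involved a ZNF gene and 3 joined a pair of ZNF genes (ZNF565 and ZNF146, ZNF829 and ZNF568, ZNF540 and ZNF571).

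Beyond the starts, ZNF genes held few peaks. Counting only peaks more than 1 kb from any annotated transcript start, the bodies of the 196 ZNF genes held 1.49 and 1.02 peaks per 100 kb in naïve cells, 3.81 and 3.20 in R1, with 0.335 and 0.320 in R2. The 674 other genes held 16.2 and 11.0, 23.5 and 21.4, and 2.88 and 3.53. The density in ZNF genes was lower in 6 of 6 libraries, with a mean difference of -11.4 peaks per 100 kb (exact sign-flip permutation test, p = 0.0312, adjusted over the 2 added tests 0.0312). In the last exons, where the fingers are encoded, ZNF genes held 4.18 and 2.83 peaks per 100 kb in naïve cells, 2.83 and 3.10 in R1, with 1.08 and 1.48 in R2, against 34.9, 27.4, 35.9, 36.9, 7.89 and 9.90 in other genes. In the last exons of ZNF genes the R1 values lay within the naïve range or at its lower end, whereas over whole bodies both R1 values lay above it.

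**Figure D4:**
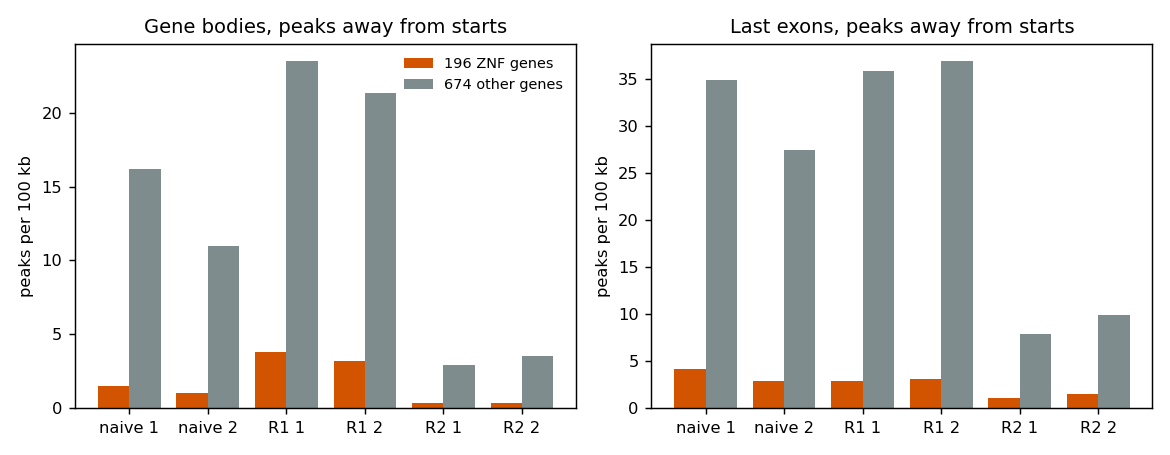
Peaks per 100 kb that lay more than 1 kb from any annotated transcript start, in gene bodies (left) and in last exons (right, 653 other genes with more than 1 exon), by library. In each library the ZNF genes hold fewer peaks than the other genes, in bodies 0.320 to 3.81 against 2.88 to 23.5.

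The peak counts along the chromosome showed the same deserts. Between 22 and 24 Mb, within cluster 1, the naïve lists held 5 and 6 peaks, the R1 lists 52 and 39, and the R2 lists 1 and 1. Between 52 and 54 Mb, within cluster 5, they held 62 and 38, 149 and 123, and 25 and 22. The 2 Mb before it, from 50 to 52 Mb, which holds the kallikreins, had 427 and 307, 611 and 550, and 82 and 89. R1 thus had many more peaks than naïve cells in the sparse 22 to 24 Mb stretch, but R1 is also the deepest of the cell types, and its higher count was not tested.

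Motif matches within 100 bp of the summits were counted in the first R1 list. The ETS letters CCGGAAG were found at 55 of 188 ZNF start peaks (29.3%), at 8.86% of other start peaks of the stretch, at 1.74% of its peaks away from starts and at 10.7% of all start peaks of the genome. The CCAAT letters of NF-Y were found at 34.6% of ZNF start peaks, 22.3% of other start peaks and 16.1% of peaks away from starts. The YY1 letters AAGATGGC were found at 6.38% against 2.44% and 0.930%. The letters TGANTCA of AP-1 ran the other way, at 1.06% of ZNF start peaks (2 of 188). Other start peaks held them at 2.60% and peaks away from starts at 5.74%. So did the CTCF letters AGGGGGCNC, at 0.532% of ZNF start peaks (1 of 188) and 2.60% of other start peaks. The SP or KLF letters GGGGCGGGG were also rarer at ZNF start peaks (10.6%) than at other start peaks of the stretch (15.3%). All start peaks of the genome held them at 18.2% and peaks away from starts at 2.05%. The remaining letters were those of NRF1 (GCGCATGCG, 2.13% of ZNF start peaks), ZNF143 (ACTACAA, 3.19%), CREB (TGACGTCA, 2.66%) and the TATA box (TATAAA, 1.06%). Both strands were searched, and a match is only a run of letters.

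The ETS letters were a property of the ZNF start windows whether or not these were open. They stood in 103 of 196 ZNF windows (52.6%), in 12.8% of the windows of other genes there and in 14.1% of all windows of protein-coding genes. Of the 78 ZNF windows with a peak in all lists 48.7% held them, and of the 28 without a peak 64.3% did, ZNF737 being among the latter.

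Whether resistant cells differed from naïve cells was asked in 36449 regions that had a peak in all 6 lists, of which 798 lay on this stretch and 91 at ZNF starts. Each region was ranked in percentiles within its library, and the median of regions of like GC content was taken off, so that 0 is the genome's typical region of that composition. The median over the 798 regions was 0.0 and 5.59 in naïve cells, -3.61 and -3.89 in R1, with 5.95 and 6.77 in R2. Taking the 4 resistant libraries together, the change was -1.49 points (exact two-sided permutation test, p = 0.8, adjusted 0.933), and 2.62 points without the first R2 library. R1 changed by -6.55 points against the naïve mean and R2 by 3.56, so that the pooled value joins changes of opposite sign. These signs depended on the choice of common regions. Where overlaps had to cover a fraction of 0.5 of each region, R1 changed by -1.78 and R2 by -4.30, and without the first R2 library by 0.256 and 7.35. With an overlap of 1 base, as used elsewhere here, in 17 of 18 bins of 2 Mb the change of R1 was below that of R2. These bins held from 1 to 126 regions and come from the same 6 libraries, so they are not independent of each other.

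ZNF starts lay higher than the stretch as a whole, but in no library higher than its other protein-coding starts. Their medians came to 4.92 and 12.9 in naïve cells, 2.498 and 5.29 in R1, with 13.5 and 14.9 in R2. The 304 regions at other protein-coding starts had medians of 13.0 and 16.7, then 7.67 and 7.27, then 17.0 and 14.9. At ZNF starts the change in resistant cells was 0.11 points (exact permutation test, p = 0.933, adjusted 0.933), and -4.18 points without the first naïve library. R1 changed by -5.03 and R2 by 5.25, but by 4.41 and -3.70 with the overlap fraction of 0.5. Against the other 707 regions of the stretch the ZNF starts changed by 3.02 points more (p = 0.267 in the same exact test, adjusted 0.933), or -2.17 without the second R2 library. All 4 resistant libraries lay above both naïve ones at 5 of the 91 ZNF start regions (5.49%) and below both at 6 (6.59%). Over all 36449 regions these shares were 12.4% and 13.0%, and over the 798 regions 5.89% and 9.65%, so calls were fewer here than in the genome at large. By comparison, on chromosome 19 before 20 Mb the resistant libraries were all lower at 54.3% of 1418 regions, and at 14 of 32 ZNF start regions.

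Single ZNF starts with all resistant libraries on 1 side of the naïve ones are given as values with no test. The exact permutation test of a single region cannot go below 0.133. The largest positive difference was at ZNF211, with adjusted ranks of -32.2 and -33.7 in naïve cells, -8.15 and 7.98 in R1, with 31.6 and -29.1 in R2, a mean difference of 33.6 points. The libraries did not overlap, but the second R2 library lay close to the naïve ones. ZNF256 had -38.5 and 0.0 in naïve cells, 14.1 and 3.17 in R1, with 17.0 and 20.4 in R2, a difference of 32.9. ZNF529 had -50.4 and -39.7, then -12.2 and -18.5, then 7.52 and -27.3, a difference of 32.5. In these genes the spread within a cell type was wide. ZNF160 had a smaller difference of 9.66 with a narrow spread: 12.9 and 15.7 in naïve cells, 21.6 and 20.8 in R1, with 28.1 and 25.4 in R2.

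The largest negative differences were at starts with adjusted ranks above 0 in both naïve libraries. Choosing starts by a fall from both naïve libraries favors such starts. ZNF444 had adjusted ranks of 46.8 and 41.9 in naïve cells, 24.1 and 13.9 in R1, with 27.8 and 32.3 in R2, and its list places went from 1632 and 2989 to between 4902 and 12090. ZNF628 had 36.8 and 32.6, then 15.5 and 16.0, then 28.7 and 5.57. ZNF430, in cluster 1, had 42.5 and 41.2, then 16.2 and 22.7, then 34.8 and 39.7. At ZNF430 R1 was far below the naïve libraries and R2 only slightly. The differences were -19.8, -18.2 and -13.5 points, and those of ZNF524 and ZNF787 were -13.8 and -7.04. At ZNF524 the strongest summit lay over 1000 bp from the start in the second naïve and the first R1 list.

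**Figure D5:**
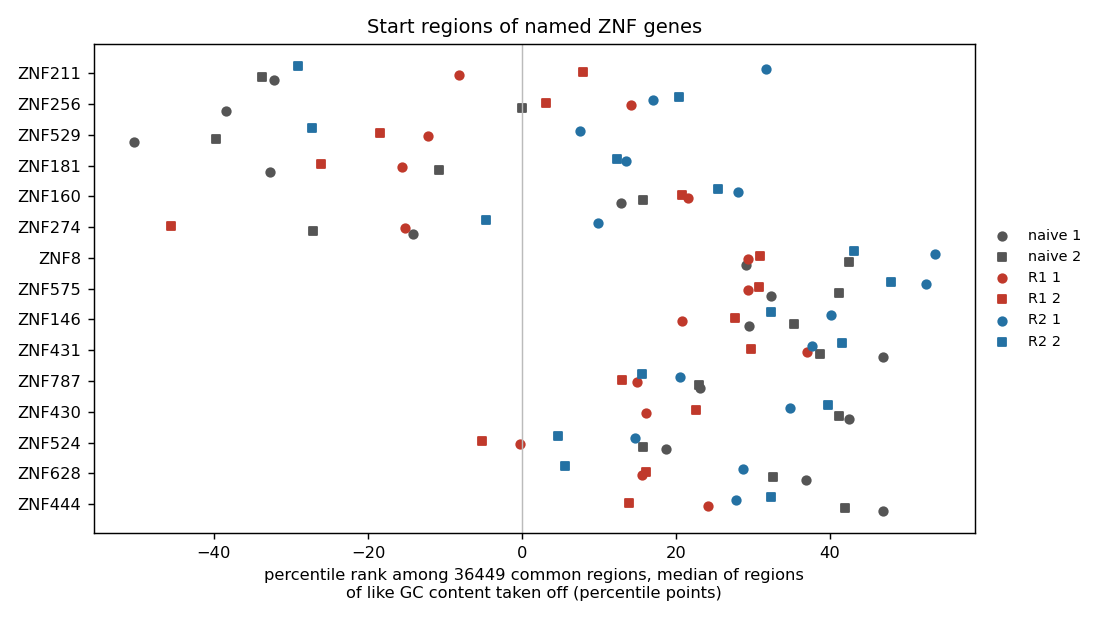
Percentile rank of the start region of 15 ZNF genes among the common regions, after taking off the median of regions of like GC content, in percentile points on the horizontal axis. Each row is a gene, with circles for the first and squares for the second library of naïve cells (grey), R1 (red) and R2 (blue). Rows are ordered by the mean change in resistant cells, from -19.8 at ZNF444 to 33.6 at ZNF211.

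The best ranked ZNF start, ZNF574, held list places 679 and 602 for naïve cells, 1477 and 2042 in R1, with 2013 and 1395 in R2. Its adjusted ranks of 41.7 and 41.2, then 33.0 and 30.3, then 43.6 and 44.5 did not separate naïve from resistant cells. ZNF8, the best of cluster 6, was at list places 5231 and 1464 in naïve cells, 3580 and 3240 in R1, with 1815 and 4540 in R2. The best starts of clusters 1 to 5 were those of ZNF431, ZNF181, ZNF146, ZNF575 and ZNF160. ZNF274 had adjusted ranks of -14.2 and -27.1 in naïve cells, -15.2 and -45.6 in R1, with 9.81 and -4.64 in R2, with the naïve and R1 libraries overlapping.

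Among the other genes of the stretch, U2AF2, which encodes the large subunit of the splicing factor U2AF, had a lower rank in the resistant libraries. The region near its start had adjusted ranks of 35.7 and 28.6 in naïve cells, -1.52 and -9.28 in R1, with -9.48 and -8.11 in R2, a difference of -39.3 points. All 4 resistant libraries were far below both naïve ones, as was the case in direction for 9.65% of the common regions of the stretch. The strongest summit lay within 1000 bp of the U2AF2 start in only 3 of the lists, the second naïve and both R2. CCNE1, the gene of cyclin E1, had 23.8 and 17.0, then 16.9 and 19.3, then 19.3 and 21.9, and did not separate. KMT5C, a methyltransferase of histone H4 and the best start of any other gene, was at places 680 and 537 in naïve cells, 3039 and 2043 in R1, with 862 and 1266 in R2.

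One ZNF start was open in resistant cells alone at high rank, and it was picked out after its values had been seen. ZNF675 is a KRAB zinc finger gene of cluster 1 (chr19:23525631-23687220, minus strand), and a peak at chr19:23686641-23687398 in the first R1 list had its summit 2 bp from the start. It held list places 13216 and 13629 in R1, and in R2 17235 and 9427. Its summit held 109, 72, 13 and 17 tags. Neither naïve list had a peak there. Scaled by background rates from the resistant library with the weakest signal, the ZNF675 peak would hold 30.3 and 17.9 tags in the naïve libraries. Their weakest called peaks held 9 and 7. This scaling assumes a like ratio of signal to background in each library, and the part of depth was not tested. All 50-base words around this start were unique on chromosome 19. Among top 20000 peaks of the first R1 list on this stretch, only this one overlapped a top 20000 peak in each other resistant list and no naïve peak. ZNF675 was also the only one of 870 protein-coding starts with a peak in the 4 resistant lists and in neither naïve list. At any strength, 5 of the 8319 merged regions were in the 4 resistant lists alone and 10 in both naïve lists alone. Both of the deep R1 lists alone held 1836, and both R2 lists alone 0. The shares of such regions and starts over the genome were not computed. R1 had 2 regions of its own in its top 20000, chr19:31338062-31338426 inside TSHZ3 and chr19:46416373-46416812 near CCDC8.

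Far from any start, the strongest region was chr19:37293002-37293931, inside the long noncoding RNA gene ENSG00000267605 within cluster 3. It stood at place 80 and 74 in naïve cells, at 55 and 46 in R1 and at 214 and 192 in R2. A second region at chr19:37294263-37294601 followed at 106, 104, 79, 63, 337 and 333. Only 19.8% and 19.05% of the 50-base words around these summits occurred once on chromosome 19. According to the methods only reads of high quality were kept, and whether reads from other copies were counted there was not tested. The third, chr19:56942804-56943044 in cluster 6, was 99.2% unique and held places 952 and 276, 1341 and 667, and 326 and 352. It lay 20942 bp from the nearest annotated start.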

How the data were processed

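ATAC-seq libraries of naïve, R1 and R2 cells (2 each) were analyzed from 1 peak list per library. According to the methods and the submitters' processing notes, the authors aligned reads with BWA 0.7.12-r1039 and marked duplicates with Picard 1.65. They kept reads of high quality (mapping quality of at least 1) with SAMtools 1.3.1 and offset read ends for Tn5. Peaks were called per library with MACS2 2.2.7.1. The methods name hg19 and the notes hg19 and hg38. Coordinates were read as hg38, with GENCODE release 44. The last peak on chromosome 19 ends at 58607634, within its hg38 length of 58617616, which by itself does not exclude hg19. With these starts, 79.6% to 82.3% of ZNF genes with a peak had its summit within 200 bp. The deposited values hold each peak's fold enrichment (a ratio) with p-values and q-values as −log10. Neither read totals nor pileups are given, so relative depth was recovered from the step of the folds, and precision is limited by the lowest called pileups of 6 to 18 tags.

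A peak belonged to a start when its summit lay within 1000 bp of the canonical transcript start. For ranks, widths, motifs at summits and common regions, ZNF starts were those of every gene whose symbol begins with ZNF, noncoding ones included. Shares of starts with a peak, start windows and gene bodies used protein-coding ZNF genes only. Percentile ranks by p were taken within a list. Common regions were peaks of the first R2 list overlapped by at least 1 base in each list, and the median of 20 GC bins (windows of 250 bp to each side of a summit) was subtracted. Exact two-sided sign-flip tests over 6 libraries and exact permutation tests of 4 resistant against 2 naïve libraries were adjusted by Benjamini-Hochberg within families of 4. With the 3 cell types as the unit, the smallest p would be 0.25. Alternatives varied the distance, the start used, the peak filter, the overlap, the scale and the libraries. Named genes were the best start of each cluster, the up to 5 largest rises and falls among ZNF starts at which all resistant libraries lay on 1 side of both naïve ones, the first 10 ZNF genes without a peak, and fixed genes. The members, lists and rules were chosen with earlier results of these data known. Scripts were tested on simulated data. Python 3.11.15, NumPy 2.4.6 and pandas 2.3.3 were used.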

Additional observations from a re-analysis of the deposited data

Results flagged for a closer look

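The values of R1 and R2 lay on opposite sides of the naïve mean, with both libraries of each on its side, in 5 results. R1 minus R2 was -10.1 percentile points over all common regions of the stretch and -10.3 points at ZNF starts. Where overlaps had to cover a fraction of 0.5 of each region, these turned to 2.53 and 8.12. The width of ZNF start peaks minus that of other start peaks differed by -291.75 bp between R1 and R2. The rank difference was -20.1 points at ZNF575 and -18.2 points at ZNF8. These differences between R1 and R2 were not tested. Background rates differed in the same order (7.94 and 5.43 in R1, 0.850 and 0.899 in R2), and the part of depth was not tested. Among 27 sets of 4 resistant values, 0 had a library far outside the others.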

How the results depend on the processing

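The narrow widths kept their direction and side of 0.05 in the 7 alternatives run on all 6 libraries. So did the occupancy against ZNF genes elsewhere (-21.7 to -15.2 points in 6 alternatives added after seeing the data) and the gene body density (4 added alternatives, -14.9 to -8.28 peaks per 100 kb, but -0.438 in the top 20000). The lower occupancy against other genes did not: it was -0.337 points at 500 bp, -3.29 where a peak had to cover the start and -2.17 in the top 20000, none past 0.05. The rank difference from all other peaks was -0.916 in the top 20000, where ranks were kept from the full lists and weaker peaks were left out. That from other starts turned to -2.87 where the peak covers the start and to -2.71 in the top 20000, with the same limit. It passed at 19.8 with starts of any transcript. The changes of R1 and R2 swapped order at an overlap fraction of 0.5: -1.78 and -4.30 over common regions, 4.41 and -3.70 at ZNF starts. The change at ZNF starts turned to -1.02 with no GC adjustment and to -0.366 for protein-coding ZNF genes. The causes were not tested.

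Leaving out 1 library (smallest p then 0.0625) gave 35.6 to 38.9 for the rank difference from all other peaks, 6.61 to 10.5 from other starts, -196.3 to -132.8 bp for width and -8.21 to -6.12 points for occupancy. It gave -18.3 to -15.8 points against ZNF genes elsewhere and -13.1 to -9.72 peaks per 100 kb. The share of the top 20000 changed by -0.26 to -0.06. The common regions changed by -3.94 to 2.62, turning above 0 without any 1 library but the first naïve. ZNF starts changed by -4.18 to 4.18, turning below 0 without the first naïve (-4.18) or either R2 library (-0.446 and -0.349), and ZNF starts minus the rest by -2.17 to 4.48, turning without either R2 library (-1.64 and -2.17).

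With the naïve label moved only within a replicate number as a replicate block, the changes stayed -0.171, -1.49, 0.11 and 3.02, with p of 0.889, 0.889, 1.0 and 0.222 (exact permutation tests). The numbers did not pair the samples: deviations correlated at 0.0215, -0.02 and 0.0106 over 36449 regions.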
